A study of Aspergillus nidulans with 38 samples.

Results

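Eisosomes are immobile protein assemblies that lie beneath furrows of the fungal plasma membrane. The filament-like core is built from BAR-domain proteins, which bind and bend the membrane, while tetraspan proteins of the Sur7 and Nce102 families sit in the membrane above it. In *Saccharomyces cerevisiae*, Nce102 moves in and out of these domains with the state of the sphingolipids and takes part in the control of their synthesis. In *Aspergillus nidulans* the core proteins are known from the cell cortex of conidia. The 4 genes described here are *pilA* (AN5217) and *pilB* (AN3931), which encode the core proteins, *surG* (AN4615), which encodes a Sur7-family membrane protein, and *nce102* (AN7683). They were chosen by their AN numbers out of 9541 genes in the count tables, and all 4 were among the 8290 genes that had reads in at least 2 replicates at every time point.

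The libraries came from a strain labelled AN1405 (FGSC A1405), whose genotype is given as the parental strain, grown as mycelium in shake flasks for about 20 h. The flasks received micafungin, an antifungal drug of the echinocandin class that blocks synthesis of β-1,3-glucan in the cell wall, at 20 ng/ml scaled to 1 g/kg of dry cell mass. Each of 3 biological replicates, called cultures 1, 2 and 3 here, was sampled in series at 13 times. These were every 5 min from 0 to 30 min, every 10 min from there to 60 min, and then 75, 90 and 120 min, and the 0 min sample was taken just before the drug. Thus every later library carried the drug and also more time in culture, and these cannot be told apart. Of the 38 libraries, 15 min had 2 and every other time had 3. Libraries held 5814843 to 10846567 counted reads. The second 15 min library carries different replicate numbers in its title and its column header. It is plotted and enters the 15 min means, but was left out of every test that needs its culture.

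The growing-hypha markers *actA*, *benA*, *chsB* and *fksA* were all abundant at 0 min, with mean normalized counts of 4952 (*chsB*) to 20820 (*actA*). A normalized count is a read count divided by a factor for the depth of its library. Among 7 markers of conidiophores and conidia, *vosA* was the highest at 0 min with 269.9 ± 108 and *rodA* the lowest at 7.47 ± 1.72 (SD, n = 3). The other 5 had means of 10.8 (*wA*) to 78.2 (*yA*). Thus *vosA* stood at a level like that of *surG* (mean 242). The mean of *yA* was above that of *nce102* (66.1), and *wetA*, at 38.9, was above *pilB* (33.2). *abaA*, *brlA*, *wA* and *rodA* had lower means than *pilB*.

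Before the drug, the core gene *pilA* was the most abundant of the eisosome genes. Its normalized count at 0 min was 786, 592 and 748 in cultures 1, 2 and 3. That of *surG* was 244, 216 and 266, of *nce102* 70.2, 79.0 and 49.0, and of *pilB* 43.2, 38.7 and 17.6. Longer genes collect more reads, so levels were compared between genes per kb of gene length in RefSeq. These lengths are 1889 bases for *pilA*, 1818 for *pilB*, 1539 for *surG* and 1053 for *nce102*, introns included. Normalized counts per kb at 0 min were 375 ± 54.5 for *pilA*, 157 ± 16.5 for *surG*, 62.7 ± 14.7 for *nce102* and 18.2 ± 7.53 for *pilB* (SD, n = 3). No 2 neighbours in that order overlapped at 0 min. The paralogous core genes therefore stood at the top and the bottom of the order.

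This order changed late in the course through *nce102*. At 60 min *nce102* was still below *surG* in this order, with 129 ± 91.1 normalized counts per kb, against 234 ± 44.1 for *surG* (SD, n = 3), and the libraries of both genes overlapped. By 120 min it was second, at 414 ± 129 against 228 ± 15.6 for *surG*, with no overlap between them. It then overlapped with *pilA*, which stood at 484 ± 47.9, and *pilB* remained last at 26.7 ± 1.55. As a share of the summed level per kb of the 4 genes, *nce102* took 10.4% ± 3.12 at 0 min, 5.33% ± 2.21 at 20 min and 35.4% ± 5.68 at 120 min (SD, n = 3). The share of *pilA* was 61.0% ± 3.47 at 0 min and 42.3% ± 3.68 at 120 min.

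**Figure D1:**
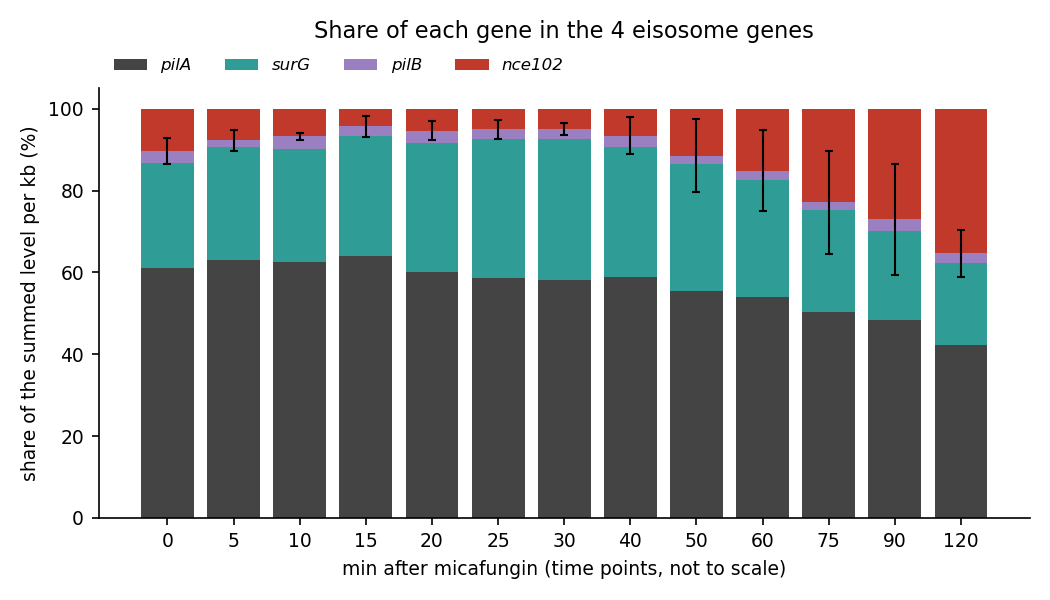
Share of each of the 4 eisosome genes in their summed normalized count per kb (y axis, %) at each of the 13 times after micafungin (x axis, min). Stacked bars are means over the libraries of a time, and error bars are the SD of the *nce102* share, which goes from 10.4% at 0 min to 35.4% at 120 min.

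*nce102* was the eisosome gene with the largest change, and its course had a low phase followed by a late rise. Its product is a membrane protein of the eisosome, linked to the regulation of sphingolipid synthesis. In culture 1 its normalized count was 70.2 at 0 min and 52.0 at 20 min, and then 120, 361, 474 and 571 at 60, 75, 90 and 120 min. In culture 2 it was 79.0 and 30.4 at the first 2 of these times, and 238, 299.9, 276 and 299.5 at the later ones. In culture 3 it was 49.0 and 19.4, and later 48.7, 65.9, 91.7 and 438. All 3 cultures thus went through a low and ended well above their start, but they did so at different times.

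Each culture lay above its own 0 min level at every sampled time from 50 min in culture 1, from 40 min in culture 2 and from 75 min in culture 3. It stayed above 2 times that level from 75, 60 and 120 min on. Culture 2 had reached a plateau by 75 min. Culture 3 had 4.78 times as much at 120 min as at 90 min, whereas cultures 1 and 2 had 1.20 and 1.09 times as much. Consequently the spread between cultures was wide in the middle of the course, with 136 ± 95.9 at 60 min and 242 ± 156 at 75 min (SD, n = 3).

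At 120 min *nce102* was higher than at 0 min by a log2 fold change of 2.69 ± 0.31 (SE), or 6.46-fold (edgeR quasi-likelihood test, adjusted p = 0.0298). The 3 libraries of 120 min, from 299.5 to 571, did not overlap with those of 0 min, from 49.0 to 79.0. The change within each culture was 3.02, 1.92 and 3.16 on the log2 scale. This test called 4.41% of the 8290 genes, of which 3.21% were higher, and *nce102* was the one eisosome gene among them. It ranked 152 from the top of all genes by fold change. The call was lost when culture 1 or culture 3 was left out. The adjusted p was 0.138 without culture 1 and 0.12 without culture 3, at log2 fold changes of 2.50 and 2.45. In both of these fits edgeR called 0 of all genes, with 1584 and 1402 at an unadjusted p under 0.05.

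A second comparison started from 20 min, the time of the lowest *nce102* mean. It was chosen with earlier results of these data known, so a larger rise follows from that choice. From 20 to 120 min *nce102* rose by a log2 fold change of 3.71 ± 0.32 (SE), or 13.0-fold (edgeR, adjusted p = 0.00947), in a comparison that called 6.91% of genes, and 4.6% as higher. It ranked 64 from the top. Without culture 1 the adjusted p was 0.0999, at a log2 fold change of 3.86.

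The low phase itself did not pass the test. The lowest normalized count of *nce102* was 36.9 at 25 min in culture 1, 30.4 at 20 min in culture 2 and 19.4 at 20 min in culture 3, which lie 1.90-, 2.60- and 2.53-fold below the 0 min library. The second 15 min library had 15.9, the lowest of all 38, from 14 reads (95% exact Poisson interval 7.65 to 23.5, counting error only). At 20 min the log2 fold change over 0 min was -1.02 ± 0.27 (SE), with an unadjusted p of 0.0124 and an adjusted p of 0.719 (edgeR). The count was lower than at 0 min in 3 of 3 cultures at 20 min, by -0.43, -1.38 and -1.34 on the log2 scale. In that comparison edgeR called 0% of genes (0 of 8290), with 479 at an unadjusted p under 0.05, while DESeq2 called 36 genes. By fold change, 1.06% of genes stood below *nce102* at 20 min. At 60 min its log2 fold change was 0.85 ± 0.35 (SE, adjusted p = 0.404, edgeR), where again 0% of genes were called, 1082 had an unadjusted p under 0.05 and DESeq2 called 335.

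**Figure D2:**
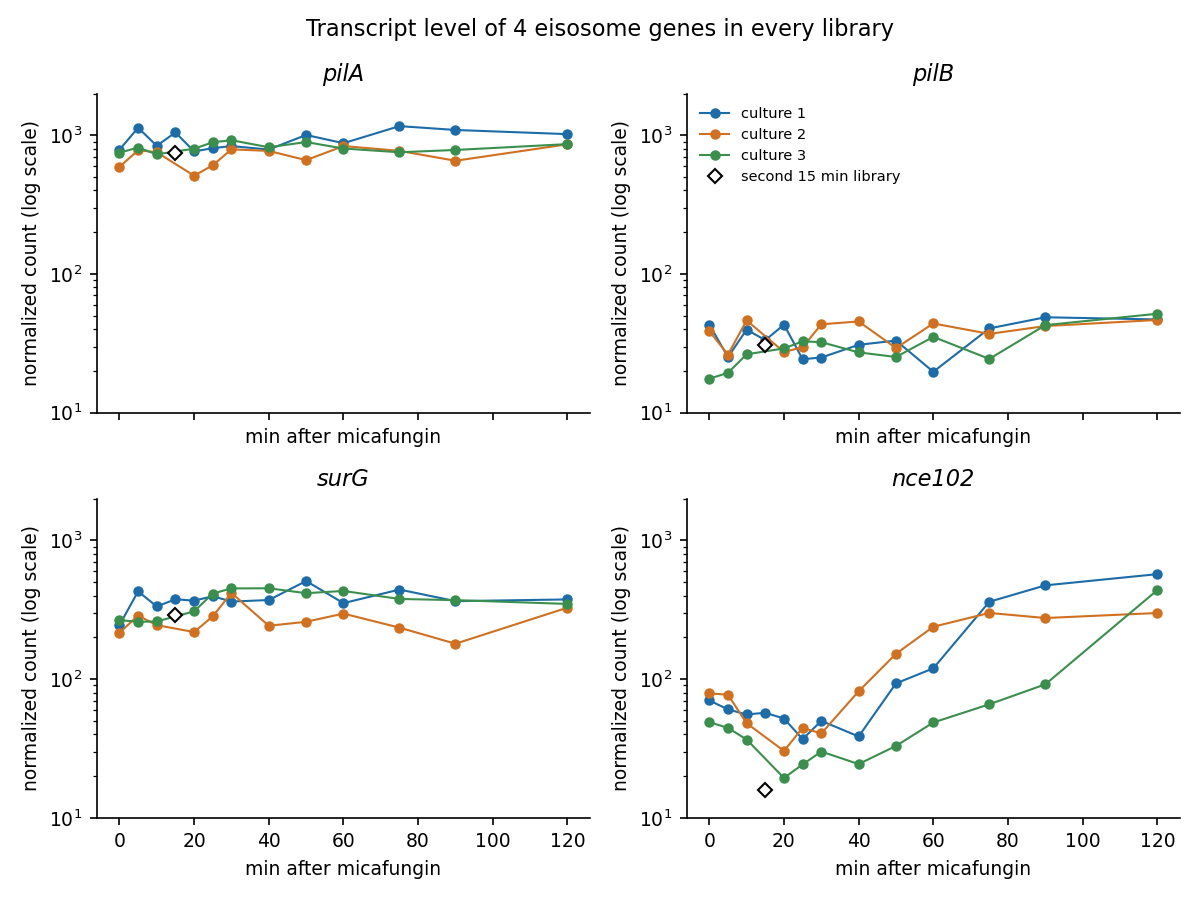
Normalized count (y axis, log scale) of *pilA*, *pilB*, *surG* and *nce102* in every library against the time after micafungin (x axis, min), with 1 line per culture and an open diamond for the second 15 min library. *nce102* spans 15.9 to 571 and leaves its low earliest in culture 2 and latest in culture 3, while the other genes stay within a 3-fold range.

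To use all time points at once, 1 edgeR model was fitted to the 37 libraries with a known culture, with culture and time as terms. In it *nce102* was higher than at 0 min by a log2 fold change of 1.69 ± 0.43 at 75 min (adjusted p = 0.00768, edgeR), where 15.7% of genes were called. The values were 1.93 ± 0.43 at 90 min (adjusted p = 0.00223, 20% of genes called) and 2.84 ± 0.44 at 120 min (SE, adjusted p = 2.61e-05, 28.9% of genes called). These calls at 75 and 90 min combine cultures at different stages: at 90 min cultures 1 and 2 had 474 and 276, and culture 3 had 91.7.

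Over the whole course, each gene was also tested for a change with time by a piecewise linear curve and permutation of its values over the libraries, with the permuted values of all genes of the same number of libraries pooled into 1 null distribution. *nce102* had p = 1.2e-06, which is the smallest value the pooled permutations can give, and was the only 1 of the 4 to pass the threshold of 0.01. Of all genes 20.8% passed. The permutation p was 0.0266 for *surG*, 0.0954 for *pilA* and 0.1 for *pilB*, and without culture 3 it was 0.632 for *surG*. When values were instead permuted within each culture, *surG* passed as well (permutation p = 0.00644), and so did 2830 of the 8290 genes. A test of all time terms in the joint edgeR model gave adjusted p-values of 1.01e-07 for *nce102*, 0.163 for *surG*, 0.326 for *pilA* and 0.234 for *pilB*. The permutation test treats libraries of 1 culture as independent of each other, although their fold changes share 1 library of 0 min. The joint model fits a level for each culture and treats what remains as independent between its serial samples.

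*surG*, the Sur7-family gene, was moderately higher during much of the course. Its normalized count at 0 min was 244, 216 and 266 in cultures 1, 2 and 3, at 30 min 362, 418 and 451, at 60 min 353, 297 and 432, and at 120 min 375, 327 and 348. All libraries at 30, 60 and 120 min thus lay above all at 0 min, which held for 6.72%, 8.07% and 18.1% of all genes. The same was true of *surG* at 15 and 25 min, and at the remaining 7 of the 12 later times its libraries overlapped with those of 0 min. In culture 1 each of the 12 later libraries was above its 0 min library. In culture 2 this held for 10 of 11, where the exception was 180 at 90 min, the lowest *surG* value of all. In culture 3 it held for 9 of 11.

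The highest mean of *surG* was 410 ± 44.7 at 30 min and the lowest was 242 ± 25.3 at 0 min (SD, n = 3), a 1.69-fold range. With 3 libraries per time its change was not called at 20 min (log2 fold change 0.27 ± 0.20, adjusted p = 0.963), 60 min (0.58 ± 0.15, adjusted p = 0.281) or 120 min (0.55 ± 0.14, SE, adjusted p = 0.101, edgeR). In the joint model it passed at 30 min, with 0.77 ± 0.20 (SE, adjusted p = 0.0478, 1.58% of genes called, edgeR). It also passed at 50 min with 0.65 (adjusted p = 0.0474, 6.48% called) and at 120 min with 0.53 (adjusted p = 0.047, 28.9% called), and not at the other times. These adjusted values all lie close to the threshold of 0.05.

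*pilA*, the main core gene, stayed within a narrow range. Its normalized count at 0 min was 786, 592 and 748 in cultures 1, 2 and 3, at 20 min 765, 511 and 800, at 60 min 876, 836 and 803, and at 120 min 1019, 861 and 863. The means over the 13 times spanned a 1.32-fold range, from 692 ± 158 at 20 min to 914 ± 90.5 at 120 min (SD, n = 3). At 120 min the log2 fold change over 0 min was 0.38 ± 0.13 (SE), with an unadjusted p of 0.0355 and an adjusted p of 0.159 (edgeR). Against 20 min it was 0.41 ± 0.18 (adjusted p = 0.257), and this comparison passed only in the joint model (0.42, adjusted p = 0.0351, 23% of genes called, edgeR). Hence *pilA* and *surG* moved by less than 2-fold wherever they were called.

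*pilB*, the second core gene, was scarce throughout. It had 14 to 62 reads per library (95% exact Poisson intervals 7.65 to 23.5 and 47.5 to 79.5), and normalized counts between 17.6 and 51.7. At 0 min these were 43.2, 38.7 and 17.6 in cultures 1, 2 and 3, and at 120 min 47.0, 46.6 and 51.7. The culture 3 library of 0 min was thus the lowest of all 38, and it set most of the change. The log2 change from 0 to 120 min was 0.12 in culture 1, 0.27 in culture 2 and 1.56 in culture 3. The edgeR estimate was 0.61 ± 0.38 (SE, adjusted p = 0.354), and at 60 min 0.04 ± 0.46 (adjusted p = 0.978). Neither change was called, although the 120 min libraries lay above those of 0 min without overlap. At this depth counts are imprecise, and the size of the change differed widely between the cultures.

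For all 4 genes the 120 min libraries lay above the 0 min libraries without overlap. This also held for 18.1% of the 8290 genes. The median log2 fold change of the 4 at 120 min was 0.58, beside -0.01 over all genes tested. By edgeR 1 of 4 was called higher and 0 lower, beside 3.21% of all genes called higher. DESeq2 called 1 of 4, beside 14.3% of all genes. An unadjusted p under 0.05 (edgeR) was found for 3 of 4, beside 26.5% of all genes. At 20 min the median was -0.01 and at 60 min 0.43, beside -0.01 and 0.02 over all genes. At each of these times 0 of 4 were called by edgeR or DESeq2, and 1 of 4 had an unadjusted p under 0.05. Over all genes 5.78% and 13.1% had such an unadjusted p at 20 and 60 min. DESeq2 called 0.434% and 4.04% of them, and edgeR 0% at both.

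**Figure D3:**
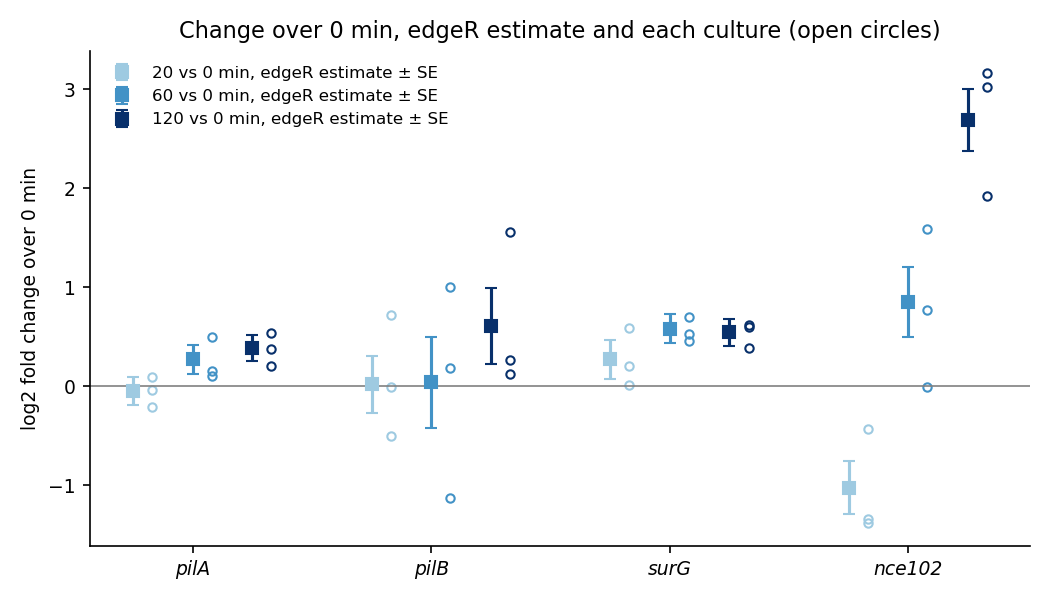
Log2 fold change over 0 min (y axis) of the 4 eisosome genes at 20, 60 and 120 min. Squares with bars are edgeR estimates ± SE, and open circles are the change within each of the 3 cultures. *nce102* lies at -1.02, 0.85 and 2.69, and the estimates of the other genes lie between -0.05 and 0.61.

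Since a ratio of 2 genes within a library needs no normalization, the eisosome genes were also set against each other. Reads of *nce102* per read of *pilA* were 0.0654 to 0.134 at 0 min and 0.348 to 0.56 at 120 min. From 0 to 120 min the log2 ratio of *nce102* to *pilA* changed by 2.65, 1.38 and 2.95 in cultures 1, 2 and 3, a mean of 2.33 ± 0.83 (SD, n = 3, exact two-sided sign-flip permutation p = 0.25). The mean change was 2.17 ± 0.76 against *surG* and 2.05 ± 0.73 against *pilB*, positive in 3 of 3 cultures each. With 3 cultures 0.25 is the smallest p that this test can give, and it was reached in these 3 ratios. At 20 min the ratio of *nce102* to *surG* had changed by -1.02, -1.40 and -1.55, and that to *pilA* by -0.39, -1.17 and -1.43, which is lower in 3 of 3 cultures.

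The ratio of *pilA* to *surG* changed much less. Reads of *surG* per read of *pilA* were 0.311 to 0.364 at 0 min, 0.433 to 0.528 at 30 min and 0.368 to 0.403 at 120 min. The log2 ratio of *pilA* to *surG* changed by -0.24, -0.06 and -0.18 from 0 to 120 min in cultures 1, 2 and 3, a mean of -0.16 ± 0.09 (SD, n = 3). It was lower in 3 of 3 cultures, which again gives the smallest p of the exact sign-flip permutation test, 0.25. Within single cultures, the Pearson correlation of *surG* with *pilA* over 12 or 13 times, on log2(normalized count + 1), was 0.55 to 0.61. That of *surG* with *nce102* was -0.16 to 0.14, and of *pilA* with *nce102* -0.04 to 0.64. These points share libraries and are serial samples of 1 flask, so the values are descriptions.

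The genes whose course was most like that of each eisosome gene were taken by the lowest of the 3 within-culture correlations. For *nce102* these were AN7170 (lowest r = 0.95), AN3361 (0.95), which RefSeq names *nopA* and which encodes an opsin-like protein, and AN5021 (0.94), which RefSeq names *ccg9* after a clock-controlled gene of *Neurospora crassa*. AN7170 had mean normalized counts of 715, 256, 1890 and 4083 at 0, 20, 60 and 120 min. In culture 3 it was 460 at 90 min and 4461 at 120 min, and in culture 2 it was 3257 at 60 min and 3177 at 120 min. It thus shared with *nce102* the low near 20 min, the early rise in culture 2 and the late rise in culture 3. All 3 genes were picked by correlation with *nce102* over these same libraries. Their likeness to it, and in part their changes at 120 min, therefore follow from that choice. At 120 min the log2 fold change over 0 min was 2.52 for AN7170, 2.23 for AN3361 and 1.47 for AN5021 (adjusted p = 0.0223, 0.0411 and 0.0348, edgeR), with adjusted p above 0.05 for each of them without culture 1 and without culture 3.

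**Figure D4:**
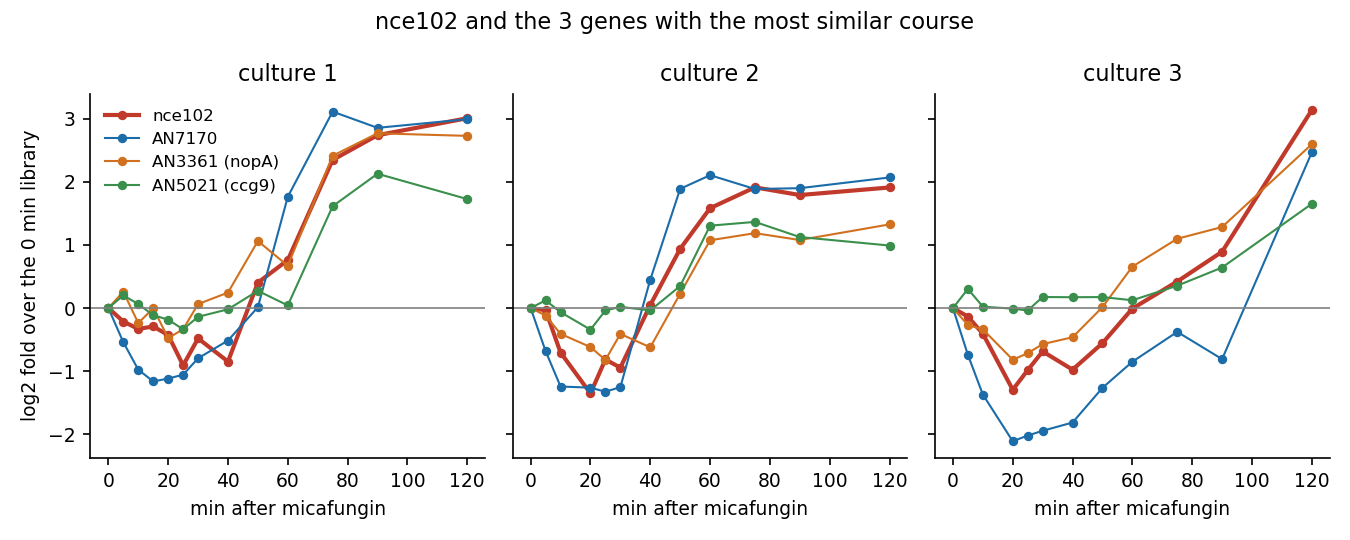
Log2 fold of normalized count + 1 over the 0 min library of the same culture (y axis) against time after micafungin (x axis, min) for *nce102*, AN7170, AN3361 and AN5021, with 1 panel per culture. *nce102* and AN7170 leave their low earliest in culture 2 and latest in culture 3, AN3361 has at 90 min a log2 fold of 1.28 in culture 3 and 1.08 in culture 2, and *nce102* in culture 3 goes from 91.7 to 438 normalized counts between 90 and 120 min.

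The other eisosome genes had less distinct partners. The highest of these lowest correlations was 0.75 for *pilA* (AN5207), 0.70 for *surG* (AN1412) and 0.59 for *pilB*. The gene in the case of *pilB* was AN6650, which RefSeq names *mcsA*, the gene of methylcitrate synthase. Next in line were AN1754 and AN8791 for *pilA*, AN7558 and AN4712 for *surG*, and AN5012 and AN0787 for *pilB*, with lowest correlations of 0.57 to 0.68. AN5012 was the one of these 9 to be called at 120 min (log2 fold change 0.82, adjusted p = 0.0474, edgeR), and it lost this call when any 1 culture was left out and without the culture term (adjusted p = 0.165). When the correlation was taken over the 13 time means instead, 1 of the 3 genes was shared for *nce102* and 0 of 3 for each of the other eisosome genes.

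The genes next to the 4 on the chromosome were read for comparison. In the order of the RefSeq assembly ASM1142v1 there are 8 such neighbours, of which 7 were in the count tables and AN11470, beside *pilA*, was not. By edgeR or DESeq2 0 of the 7 passed at 120 min against 0 or 20 min, 1 had an unadjusted p under 0.05 against 0 min and log2 fold changes over 0 min were -0.48 to 0.61, with a lowest adjusted p of 0.121 (edgeR). The shares of all genes called by edgeR were 4.41% against 0 min and 6.91% against 20 min, so 0 of 7 is near the background. Of all genes 26.5% had an unadjusted p under 0.05 against 0 min. The neighbours of *nce102* were AN7682, at 736 and 704 mean normalized counts at 0 and 120 min, and AN7684, at 49.3 and 71.7. The others were AN5216 beside *pilA*, AN3932 (*pre2* in RefSeq) and AN3930 beside *pilB*, and AN4616 and AN4614 beside *surG*.

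Eisosomes and endocytic actin patches are separate cortical structures in filamentous fungi, so genes of the patch machinery were read alongside. The list held *slaB*, *pan1*, *sla1*, coronin, Arp2/3 subunit 5, *actA*, *fimA*, *sagA* and *myoA*. At 120 min 0 of these 9 were called by edgeR or DESeq2, 2 had an unadjusted p under 0.05, and all 9 had a log2 fold change below 0. Over all genes 4.41% were called by edgeR and 26.5% had an unadjusted p under 0.05. They ranged from -0.53 for *actA* to -0.23 for *sla1*, with a median of -0.38 beside -0.01 over all genes and a lowest adjusted p of 0.0865 (edgeR). At 20 min the median was -0.05, with 0 of 9 called or at an unadjusted p under 0.05. At 60 min the median was -0.29 beside 0.02 over all genes, and all 9 were below 0. There 0 of 9 were called by edgeR or DESeq2, and 3 had an unadjusted p under 0.05, beside 13.1% of all genes. The signs at 120 min were thus opposite to those of the 4 eisosome genes, without any of these 9 passing the test.

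For sphingolipid synthesis, the pathway to which Nce102 is linked, 1 gene is identified in the sources used here, AN0918, which encodes a hydroxylase of the very long chain fatty acid of ceramide. Its mean normalized count was 406 ± 135 and 272 ± 66.7 at 0 and 20 min, and 578 ± 276 and 987 ± 267 at 60 and 120 min (SD, n = 3). The libraries ran from 312 to 561 at 0 min and from 682 to 1181 at 120 min, without overlap. At 120 min the log2 fold change was 1.30 ± 0.20 over 0 min (SE, adjusted p = 0.0449) and 1.84 over 20 min (adjusted p = 0.0275, edgeR). The first call was lost without the culture term (adjusted p = 0.0612) and when any 1 culture was left out (0.0547 to 0.145), the second without culture 1 (0.194). Like *nce102*, AN0918 had its lower mean at 20 min and its higher mean at 120 min. Its log2 fold change at 20 over 0 min was -0.55 ± 0.35 (SE, adjusted p = 0.952, edgeR). The lower mean at 20 min thus did not pass the test for either gene.

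Because eisosome proteins are also known from conidia, the conidiophore and conidium markers were followed through the course. At 120 min 1 of 7 was called higher and 0 lower, beside 3.21% of all genes called higher, with a median log2 fold change of 0.37 beside -0.01 over all genes. The called gene was *brlA*, the gene of the transcription factor that initiates conidiophores, at 3.66 ± 0.36 (SE, adjusted p = 0.0252, edgeR). Its normalized count at 0 min was 12.2, 25.3 and 1.26 in cultures 1, 2 and 3, at 60 min 34.8, 149 and 14.5, and at 120 min 157, 245 and 50.7. Thus at 60 min *brlA* was, like *nce102*, highest in culture 2 and lowest in culture 3, an order that both genes already had at 0 min. In culture 3 *brlA* went from 1.26, a value near the floor, to 14.5 by 60 min, while *nce102* had 49.0 and 48.7. At 120 min *brlA* was still lowest in culture 3, where *nce102* had risen to 438. The call of *brlA* was lost without culture 1, without culture 3 (adjusted p = 0.138 and 0.0801) and without the culture term (0.0782). The lowest log2 fold change of the list was that of *wA*, at -0.42. The summed normalized count of all 7 markers was 372 to 577 at 0 min and 559 to 665 at 120 min. Among the hypha markers edgeR called 0 of 4 at 120 min, 1 had an unadjusted p under 0.05 and DESeq2 called 1, *benA*, as lower. The shares of all genes were 4.41%, 26.5% and 14.3% in the same order, so 1 of 4 at an unadjusted p under 0.05 is near the background. The edgeR log2 fold changes of these markers ran from -0.65 for *benA* to 0.04 for *fksA*. In these bulk samples a change in the share of a cell type and a change of RNA per cell cannot be told apart, and the part of these markers in the level of *nce102* was not tested.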

How the data were processed

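Mycelium from 3 serially sampled cultures was sequenced with single-end reads. The authors aligned them with HISAT2, counted reads per gene with HTSeq-count using the FGSC A4 annotation, and deposited raw counts beside normalized values, which were not used (71 columns). For the strand setting and the annotation release, nothing is given in the sources used here. The raw counts of 38 libraries (median 7964987.5 reads) were divided by median-of-ratios size factors for the levels. Tests used edgeR 4.0.16 in R 4.3.3 with TMM, the culture as replicate block and Benjamini-Hochberg adjustment over 8290 genes at 0.05, with 3 libraries per time. The culture pairs libraries because 1 flask was sampled in series. Deviations from the mean at 0 and 120 min correlated within cultures at -0.14, 0.15 and 0.26. The p-values of these comparisons rest on how the change varied among the 3 flasks, with a dispersion estimated in part over all genes. The course test fitted up to 3 knots to log2 fold changes over 0 min, with 100 permutations per gene, pooled over genes.

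The second 15 min library, titled replicate 3 but headed 2, was left out of paired tests, a choice made after the files were seen. Its median absolute log2 difference to the 10 and 20 min libraries was 0.261, 0.313 and 0.175 for cultures 1, 2 and 3. Alternatives were no block, DESeq2 size factors, DESeq2 1.42.0, 2 other filters, a joint fit, other permutations, both pairings of that library, and leaving out each culture. The tests were checked on simulated data. Named genes were the 4 eisosome genes, for each the 3 genes of mean normalized count 50 or more with the most similar course, the chromosome neighbours, and from each list the called genes and the extremes at 120 min. Members, lists and the comparison of 120 with 20 min were chosen with earlier results of these data known. The joint-fit calls at single times other than 20, 60 and 120 min were added after seeing the data.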

Additional observations from a re-analysis of the deposited data

How the results depend on the processing

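Of 96 fold changes of the 4 eisosome genes under settings that kept all cultures, 94 kept their direction and side of the threshold, and 2 passed only in the joint fit (*surG* at 120 against 0 min, *pilA* at 120 against 20 min), so that this fit called 2 of 4 in each. Without the replicate block 1 of 4 was called at 120 min against 0 and against 20 min, as with it, and the genes called went from 366 to 247 and from 573 to 513; among the members the block changed no call. *nce102* kept its direction in all settings. Leaving out 1 culture gave 0 to 1 members called at 120 min against 0 min and against 20 min. It gave 0 to 115 genes at 60 min, 0 to 581 at 120 min and 0 to 855 at 120 against 20 min. Small changes turned direction when 1 culture was left out, and ranged from -0.12 to 0.018 for *pilA* at 20 min, -0.24 to 0.31 and -0.38 to 0.58 for *pilB* at 20 and 60 min, and -0.55 to 0.26 and -0.42 to 0.41 for the log2 ratios of *pilA* and *surG* to *pilB* at 120 min; the cause was not tested. DESeq2 called 36, 335, 1186 and 1030 genes at 20, 60, 120 and 120 against 20 min, and the joint fit 11, 750, 2394 and 1904. For the whole course, permutation within cultures called 2 of 4 (*surG* at p = 0.00644) and 2830 genes, against 1725, and centring within cultures called 3036. Leaving out 1 culture called 1146 to 1919. Pairing the second 15 min library with culture 3 or 2 called 1771 or 1774. Counts of *pilB*, and of *nce102* in its low phase, are the lowest and so the least precise. There were 3 cultures of 1 strain and no untreated culture of the same age; the difference in timing between cultures was not tested.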
